A study of Mus musculus with 40 samples.

Results

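The genes described here are the matrix metalloproteases (Mmp), the ADAMTS proteases, the ADAMTS-like proteins (Adamtsl) and the tissue inhibitors of metalloproteases (Timp), taken as every row of the table whose symbol carries one of these family names and a number. This gave 51 of 55270 genes, namely 23 Mmp, 19 Adamts, 5 Adamtsl and 4 Timp genes. They were measured by RNA sequencing of adipose tissue from C57BL/6J mice in 40 libraries, 5 in each of 8 groups. Within each of the depot labels subcutaneous and visceral, mice had been on a high-fat diet (HFD) with drug, on HFD, on a normal diet with drug or on a normal diet. The drug is beta-carotene according to the series' design text, a precursor of vitamin A made by plants, and the same text gives the epididymis as the site of the visceral fat. Dose, duration, age and sex are not in the labels used here, nor is any transgene or other genetic change, and whether each library is a separate animal is not said, so the p-values measure only the spread between these libraries, which may be technical.

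Metalloproteases cut proteins outside the cell with a zinc ion held in the active site. They are secreted or displayed on the membrane as inactive precursors, and most become active only once a propeptide is removed. Matrix metalloproteases cut collagens, elastin and many other proteins, ADAMTS proteases trim procollagens and cut the large proteoglycans versican and aggrecan, ADAMTS-like proteins share the accessory domains without the protease, and TIMPs block the active site. In fat, this system is known for remodelling the matrix around fat cells as they enlarge and as new vessels and macrophages move in. An mRNA level says nothing of how much protease is active.

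Values are in TPM, a gene's share of the transcripts of a library with its length taken into account, so levels of different genes can be compared. A change is a difference of mean log2(TPM + 1), and this scale makes the change of a low gene look smaller than it is. A member was tested where at least 5 libraries of the fit held 1 TPM or more of it. It was called where limma gave it a Benjamini-Hochberg adjusted p under 0.05, with the adjustment running over every gene tested. Of the 51 members, 29 were tested in libraries labelled subcutaneous, 28 in those labelled visceral and 31 in the comparison of the labels, and 20 were tested nowhere. In bulk tissue, fewer cells of a type and less RNA per cell cannot be told apart.

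All 40 libraries held fat cell transcripts, with 6 fat cell markers summing to 7125 to 46100 TPM. Depot markers ran against the depot labels in all 40 libraries by the mean log2 level of each list. Sample titles end in e or ewat for every library labelled subcutaneous and in i for every library labelled visceral. The depots are therefore called "labelled subcutaneous" and "labelled visceral". The 8 mesothelial markers, which mark the lining of fat inside the abdomen, had mean log2 levels of 2.997 to 5.69 in libraries labelled subcutaneous, against 0.47 to 2.07 under the visceral label. Their sums overlapped, at 77.3 to 1055 TPM in the 20 libraries labelled subcutaneous and 5.29 to 87.5 TPM in the 20 labelled visceral. The 5 genes of inguinal position had mean log2 levels of 0.52 to 1.40 in libraries labelled subcutaneous, against 2.86 to 3.96 under the visceral label, and summed to 2.47 to 17.1 TPM in libraries labelled subcutaneous and to 45.1 to 97.1 TPM under the visceral label. Counted reads were about 4.58 to 8.58 M per library. Transcripts of the epididymis and testis reached 49280 TPM in 1 library labelled subcutaneous, and those of B cells reached 20920 TPM in 1 labelled visceral. Skeletal muscle transcripts reached 18020 TPM in HFD with drug library 62 labelled visceral.

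Timp4, a TIMP known for its high level in fat and heart, had the highest mean over the 40 libraries at 160.6 TPM, and Adamts1, a secreted protease that cuts versican and aggrecan, followed at 157.4 TPM. The order differed between the labels. Adamts1 averaged 219.1 TPM and Timp4 171.8 TPM in libraries labelled subcutaneous, while under the visceral label Timp4 averaged 149.5 TPM, Timp2 116.0 TPM and Adamts1 95.7 TPM. Over all 40, next came Timp2 at 115.1 TPM and Mmp14, the membrane protease that activates Mmp2, at 81.98 TPM. Timp3, the inhibitor that binds to the matrix, averaged 72.7 TPM, Mmp23 59.0 TPM, the aggrecanase Adamts5 57.5 TPM and the gelatinase Mmp2 53.9 TPM. In all, 19 of the 51 members averaged at least 10 TPM. Mmp1a, Mmp1b and Mmp20 were at 0 in more than 30 of the 40 libraries. Mmp1a and Mmp1b are close copies of each other, so reads may have been split between them.

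HFD was first set against the normal diet in fat labelled subcutaneous. Mmp9, a secreted gelatinase known from neutrophils, macrophages and cells that resorb bone, was the 1 member called, and it fell. The 5 HFD libraries had 2.23, 4.18, 2.20, 3.07 and 6.45 TPM, against 16.7, 15.4, 20.9, 18.8 and 9.35 TPM in the 5 normal libraries. Every HFD library lay below every normal library. The change was -1.93 (SE 0.282, adjusted p = 0.0008), and it remained past the threshold in all 22 other fits, those leaving out each library in turn included. This was 1 of 29 members tested, or 3.45%, while 5.45% of all 17649 genes were called in the same fit, with 3.75% higher and 1.69% lower. In 5 of the 29 members the groups were without overlap, against 11.5% of all genes.

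Other members of fat labelled subcutaneous stood apart between the diets without a call. Mmp19, a secreted matrix protease, had 199.8, 79.3, 147.6, 38.9 and 43.8 TPM in HFD libraries and 35.0, 28.1, 29.3, 34.5 and 32.7 TPM in normal libraries. The groups did not overlap, and the change was 1.36 (SE 0.440, adjusted p = 0.0775). Adamts4, an aggrecanase, had 24.2, 34.4, 18.0, 26.9 and 32.2 TPM in HFD libraries and 86.9, 57.5, 48.2, 47.8 and 59.9 TPM in normal libraries. Again no HFD library reached the lowest normal library, and the change was -1.12 (SE 0.395, adjusted p = 0.106). Adamtsl4, which binds fibrillin microfibrils, and Adamts2, which removes the amino-terminal propeptide of fibrillar procollagens, were the other members without overlap, and both were higher in every HFD library, with adjusted p = 0.104 and 0.291. Mmp12, the elastase of macrophages, had 325.3, 26.7, 724.9, 56.4 and 45.6 TPM in HFD libraries and 19.3, 20.3, 20.6, 37.1 and 23.3 TPM in normal libraries. Of its HFD libraries, only number 23 lay within the normal range, and the change of 2.20 (SE 0.807) had adjusted p = 0.119.

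HFD libraries 22 and 50 stood apart from the other three HFD libraries of this depot label. The 12 macrophage markers summed to 9629 TPM in library 22 and 11330 TPM in library 50, against 2628 to 3269 TPM in the other three HFD libraries and 2075 to 3232 TPM in normal libraries. All 12 markers were detected in every group, and 5 of them (Adgre1, Trem2, Gpnmb, Itgax and Ctss) rose with HFD, a number that fell to 0 without libraries 22 and 50. Libraries 22 and 50 were the 2 highest of the 5 HFD libraries in 12 of the 29 members tested, and the 2 lowest in 6, where Mmp9 was among them. The part of macrophages in the values of Mmp12, Mmp19 and Mmp9 was not tested.

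**Figure D1:**
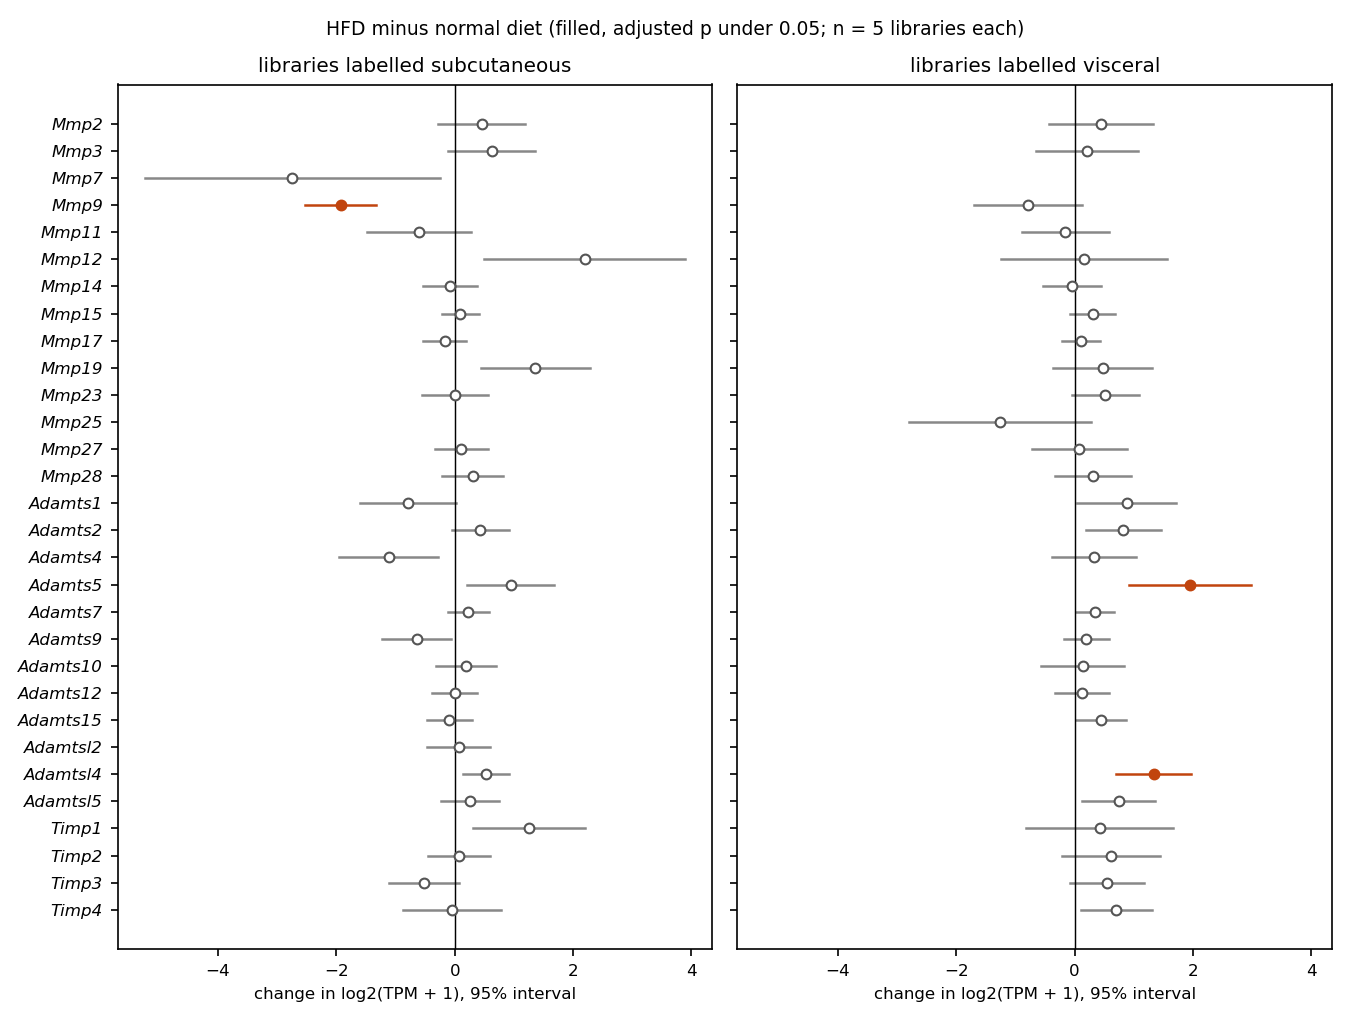
Change in log2(TPM + 1), HFD minus normal diet, of each tested member in libraries labelled subcutaneous (left) and visceral (right), with its 95% interval (not adjusted for the number of genes); filled points had adjusted p under 0.05. Mmp9 is the 1 filled point at left and Adamts5 and Adamtsl4 are the 2 at right.

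HFD with drug was then set against HFD alone in fat labelled subcutaneous. Here 17 of the 29 members tested fell and 0 rose, or 58.6%, while 16.6% of all 17649 genes tested fell and 2.63% rose. The 17 comprised 7 of 13 Mmp genes, 6 of 9 Adamts genes, 2 of 3 Adamtsl genes and 2 of 4 Timp genes. The median change over the 29 members was -0.71, against -0.17 over all genes. How many were called depended on the scaling: with the medians of the libraries made equal, which brought the median change of all genes to 0.00, 5 fell and Mmp9 rose. Groups did not overlap in 11 of the 29 members, against 14.2% of all genes.

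Among the matrix metalloproteases, Mmp12 had the largest change. It was at 35.0, 11.1, 1.58, 6.66 and 3.08 TPM in HFD with drug libraries, against 325.3, 26.7, 724.9, 56.4 and 45.6 TPM in HFD libraries. Only HFD with drug library 25 and HFD library 23 crossed. The change was -3.79 (SE 0.807, adjusted p = 0.00607). Mmp19 had 17.3, 24.6, 18.9, 33.2 and 24.96 TPM in HFD with drug libraries and 199.8, 79.3, 147.6, 38.9 and 43.8 TPM in HFD libraries, a change of -1.80 (SE 0.440, adjusted p = 0.011). No HFD with drug library reached the HFD range. The group means with drug, 11.5 TPM for Mmp12 and 23.8 TPM for Mmp19, were also below the normal means of 24.1 and 31.9 TPM, a difference that was not tested.

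The gelatinase Mmp2 and its activator Mmp14 fell together. Mmp2 was at 12.02, 16.1, 9.68, 20.8 and 15.7 TPM in HFD with drug libraries and 59.9, 30.5, 71.9, 22.4 and 22.9 TPM in HFD libraries, and its change was -1.30 (SE 0.351, adjusted p = 0.0177). Mmp14 was at 31.2, 54.4, 43.4, 43.5 and 48.9 TPM in HFD with drug libraries and 85.8, 57.8, 117.8, 58.4 and 70.0 TPM in HFD libraries, and its change was -0.77 (SE 0.217, adjusted p = 0.021). In both genes the groups did not overlap, by a narrow margin to the lowest HFD library. Timp2, which blocks Mmp2 and also docks its precursor to Mmp14 for activation, was at 53.3, 85.7, 64.8, 85.0 and 104.1 TPM in HFD with drug libraries and 151.9, 119.9, 185.0, 108.9 and 113.7 TPM in HFD libraries, a change of -0.79 (SE 0.252, adjusted p = 0.0363). The activator, the protease and the inhibitor of this group thus each had lower values in all 5 HFD with drug libraries than in any HFD library. Mmp2 lost its call without HFD library 22 or HFD library 50. Mmp14 and Timp2 lost theirs in the same 2 fits, and also without HFD with drug library 25. Timp2 lost its call without HFD with drug library 27 as well. Mmp2, Mmp14 and Timp2 each lost the call with quantile normalization and with library medians made equal. Mmp14 and Timp2 also lost it with the gene length trend removed, and Timp2 with no filter.

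Mmp15, Mmp28 and Mmp3 fell as well. Mmp15, a membrane protease related to Mmp14, averaged 5.38 ± 1.05 TPM in HFD with drug libraries and 9.30 ± 1.58 TPM in HFD libraries (SD, n = 5 each), with no overlap and a change of -0.69 (SE 0.149, adjusted p from limma = 0.00624). Mmp28, also called epilysin, averaged 7.64 ± 2.75 TPM with drug and 13.2 ± 1.54 TPM without (SD, n = 5 each), again with no overlap (change -0.77, adjusted p from limma = 0.0358). Mmp3, also called stromelysin, which cuts proteoglycans and activates other precursors, was at 4.31, 3.33, 1.91, 4.49 and 5.89 TPM in HFD with drug libraries and 17.8, 8.16, 12.9, 8.81 and 4.04 TPM in HFD libraries. Its groups overlapped through HFD library 83 (change -1.11, adjusted p = 0.0345). Mmp3 kept its call in only 4 of the 10 fits leaving out 1 library, and Mmp28 in 3 of 10. Mmp13, a collagenase that was too low to test, stood at 0.0691 to 0.377 TPM in the 5 HFD with drug libraries and 0.425 to 5.66 TPM in the 5 HFD libraries, whose 2 highest were numbers 50 and 22.

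Mmp7 and Mmp9 had positive changes. Mmp7, also called matrilysin, a small protease of epithelia, was at 194.7, 46.0, 1.15, 65.0 and 5.00 TPM in HFD with drug libraries and at 0, 1.47, 2.15, 0.9997 and 3.34 TPM in HFD libraries. It varied widely within the drug group, and the change of 3.36 (SE 1.19) had adjusted p = 0.0548. It was called without libraries rich in other tissues, with a filter of 10 TPM, and without HFD with drug library 27 or 62. The epididymis and testis transcripts summed to 151.4, 7272, 17740, 18.3 and 8.87 TPM in the same 5 HFD with drug libraries, and their part in the values of Mmp7 was not tested. Mmp9 was at 5.65, 8.79, 9.82, 5.34 and 4.18 TPM in HFD with drug libraries, overlapping with the HFD libraries, and its change of 0.77 (SE 0.282) had adjusted p = 0.0636.

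Of the proteoglycan-cutting ADAMTS proteases, Adamts5 had the largest change. It was at 28.2, 35.5, 27.7, 46.4 and 84.1 TPM in HFD with drug libraries and 126.6, 72.1, 110.8, 154.9 and 100.9 TPM in HFD libraries, with 1 crossing pair and a change of -1.41 (SE 0.350, adjusted p = 0.0118). Libraries 22 and 50 were not the 2 highest HFD libraries of this gene. Adamts15, which also cuts versican and aggrecan, averaged 6.804 ± 0.913 TPM in HFD with drug libraries and 11.1 ± 3.40 TPM in HFD libraries (SD, n = 5 each; adjusted p from limma = 0.0283). Its groups overlapped. Adamts15 kept its call in 7 of the 10 fits leaving out 1 library and in 5 of 12 other settings. Adamts1 averaged 101.5 ± 40.8 TPM with drug and 169.7 ± 64.6 TPM without (SD, n = 5 each), but its adjusted p from limma was 0.187. Adamts4 likewise missed the threshold, with adjusted p = 0.342.

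The procollagen protease Adamts2 was at 2.13, 3.47, 3.07, 4.68 and 4.17 TPM in HFD with drug libraries and 9.73, 6.83, 9.37, 6.88 and 6.91 TPM in HFD libraries. The groups lay well apart, and the change was -1.01 (SE 0.230, adjusted p = 0.00811). Adamts7 and Adamts12, which cut cartilage oligomeric matrix protein, fell too, with changes of -0.76 and -0.54 and adjusted p = 0.00661 and 0.0439. Adamts10, which binds fibrillin microfibrils, averaged 7.08 ± 1.51 TPM in HFD with drug libraries and 15.1 ± 3.19 TPM in HFD libraries (SD, n = 5 each), with no overlap (change -0.999, adjusted p from limma = 0.0102). The ADAMTS-like proteins Adamtsl4 and Adamtsl5 also fell without overlap, with changes of -0.71 each and adjusted p = 0.0154 and 0.0415. Adamtsl5 kept its call in only 2 of the 10 fits leaving out 1 library, and Adamts12 in 3 of 10.

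Among the inhibitors, Timp1, the TIMP that inflammation is known to induce, was at 5.89, 5.21, 3.27, 5.96 and 3.40 TPM in HFD with drug libraries and 42.3, 6.95, 38.1, 5.79 and 7.28 TPM in HFD libraries. The high HFD values were those of libraries 22 and 50, and the other three HFD libraries lay near the drug group. The change was -1.42 (SE 0.450, adjusted p = 0.0359), and the call was lost without either of these libraries. It was also lost without HFD with drug library 25, 26, 27 or 62, and was kept in 3 of 11 other settings. Timp3 and Timp4 were not called. Timp4 averaged 194.1 ± 78.3 TPM in HFD with drug libraries and 190.6 ± 69.0 TPM in HFD libraries (SD, n = 5 each), and the 95% interval of its change was -0.82 to 0.84 (adjusted p from limma = 0.988). The interval for Timp3 was -0.91 to 0.28 (adjusted p = 0.455).

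**Figure D2:**
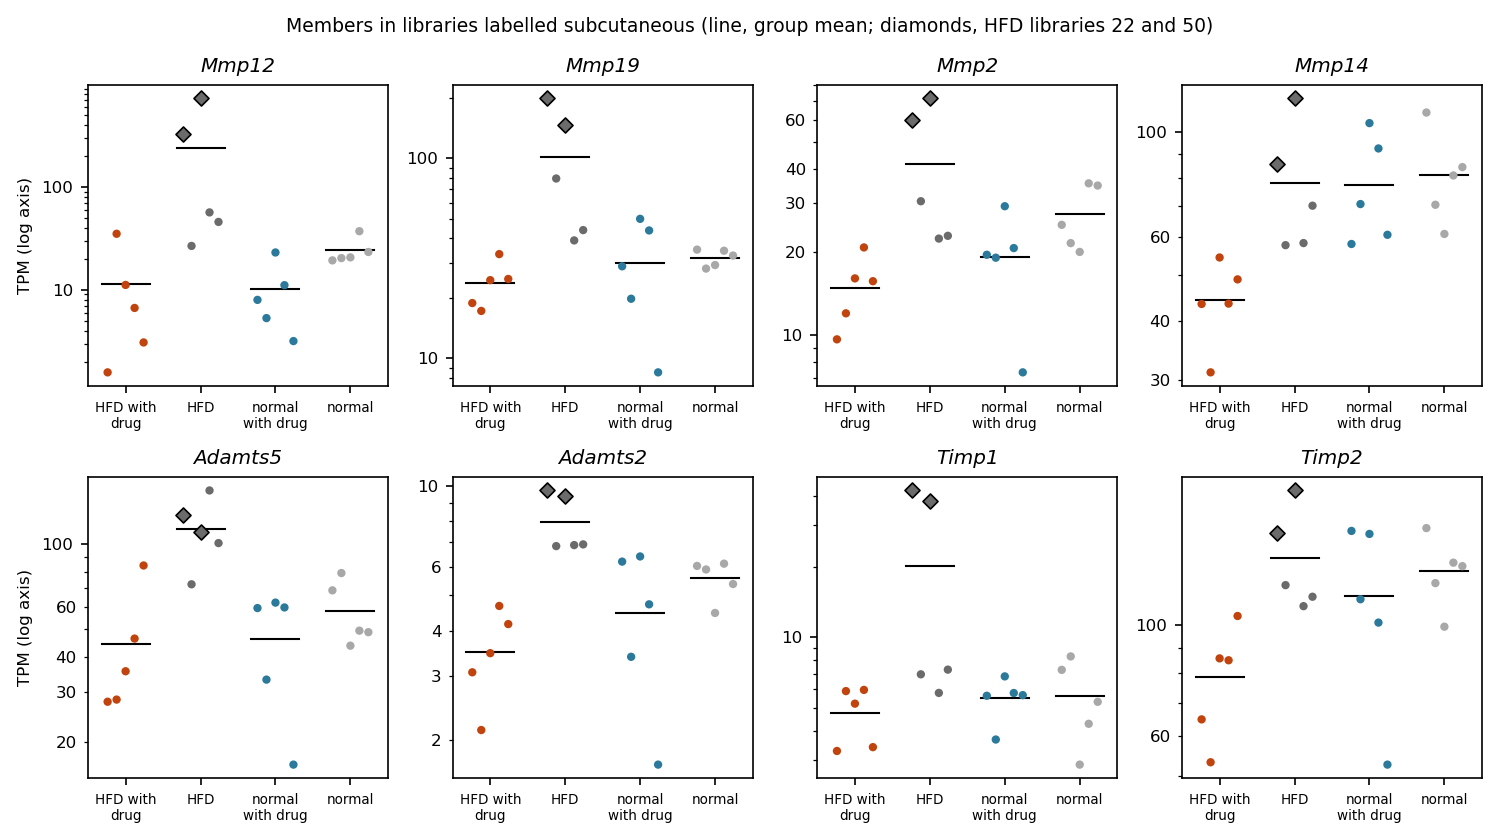
TPM (log axes) of 8 members in each of the 20 libraries labelled subcutaneous, by treatment; lines are means of 5 libraries and diamonds mark HFD libraries 22 and 50. The diamonds are the 2 highest HFD values in 7 panels, the exception being Adamts5, and the Timp1 values of the other three HFD libraries lie near the other groups.

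The count of 17 depended on which libraries were in the fit, HFD libraries 22 and 50 among them. Libraries 22 and 50 were the 2 highest HFD libraries in 11 of the 17 members that fell and the 2 lowest in 0. Without either one alone, 8 members fell, and 9 fell without HFD with drug library 25. The other 7 fits leaving out 1 library gave 12 to 16 members that fell. The 8 members that kept their call in all 10 of these fits were Mmp12, Mmp15, Mmp19, Adamts2, Adamts5, Adamts7, Adamts10 and Adamtsl4. Under the other settings that tested them, Mmp12, Mmp19, Adamts2 and Adamts10 lost the call only without both libraries 22 and 50. Mmp15 and Adamtsl4 also lost it with quantile normalization, library medians made equal or the gene length trend removed. Adamts7 also lost it with library medians made equal, and Adamts5 with the gene length trend removed. Without both libraries, limma called 0 of the 29 members and 218 of 17649 genes, while 14 members had a negative change at an unadjusted p under 0.05. Of all genes, 3654 had such a p in either direction. The changes in that fit were -2.37 (SE 0.676, adjusted p = 0.0763) for Mmp12, -1.34 (SE 0.428, adjusted p = 0.102) for Adamts5 and -0.68 (SE 0.178, adjusted p = 0.0645) for Mmp15.

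Markers of macrophages moved with these genes. Their sum was 1265 to 2260 TPM in HFD with drug libraries and 2628 to 11330 TPM in HFD libraries, without overlap, and 11 of the 12 markers fell; without libraries 22 and 50, 3 fell. Of 9 fibroblast and progenitor markers, 4 fell (Col1a1, Col1a2, Col3a1 and Pdgfrb) and Dpp4 rose, and of 8 mesothelial markers 3 keratins rose. Of 7 endothelial markers, Cdh5 and Tie1 fell. The part of these cells in the changes of the proteases was not tested.

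**Figure D3:**
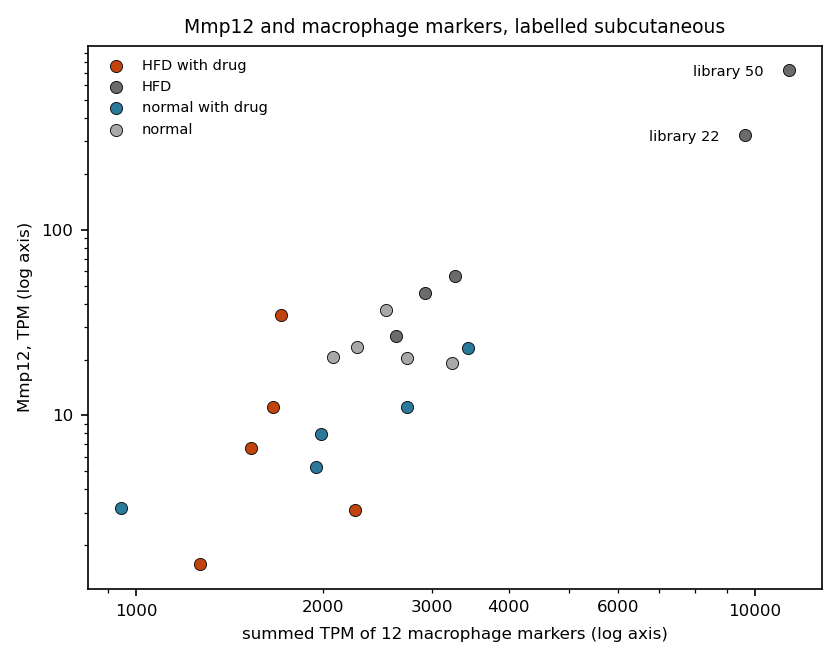
Mmp12 in TPM against the summed TPM of 12 macrophage markers (both axes log) in the 20 libraries labelled subcutaneous, coloured by treatment. HFD libraries 22 and 50 lie at the upper right, with 325.3 and 724.9 TPM of Mmp12, and 4 of the 5 HFD with drug libraries lie at or below 11.1 TPM.

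Of 30 tested genes for matrix proteins that these families cut, 22 fell and 0 rose with drug under HFD, with a median change of -1.24 against -0.17 over all genes. Col6a3, of the collagen type around fat cells, changed by -1.62 (SE 0.309, adjusted p = 0.00433), Col15a1 by -1.68 (SE 0.310, adjusted p = 0.00394), the perlecan gene Hspg2 by -1.59 (SE 0.321, adjusted p = 0.00511) and the fibrillar collagen gene Col1a1 by -1.47 (SE 0.348, adjusted p = 0.00964). Col1a1, Col1a2, Col3a1, Dcn and Lum stand in this list and in the fibroblast list. With HFD against normal diet, 5 of the 30 rose, namely Col6a1, Col6a2, Col15a1, Ncan and Tnc. Without libraries 22 and 50, 3 of the 30 fell with drug and 2 rose with HFD.

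Among 26 tested regulators and neighbours of matrix proteolysis, 12 fell with drug under HFD and 0 rose, with a median change of -0.58. Adam8, a membrane protease of leukocytes, changed by -3.36 (SE 0.631, adjusted p = 0.0042), Mrc2, the receptor that takes up collagen fragments, by -1.97 (SE 0.281, adjusted p = 0.00127), Ctsk, the collagen-cutting cathepsin K, by -2.05 (SE 0.513, adjusted p = 0.0124), and Bmp1, which removes the carboxy-terminal propeptide of procollagens, by -1.03 (SE 0.194, adjusted p = 0.0042). Adam8 and Mrc2 were also the 2 of the 26 that rose with HFD. Without libraries 22 and 50, 2 of the 26 fell with drug.

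**Figure D4:**
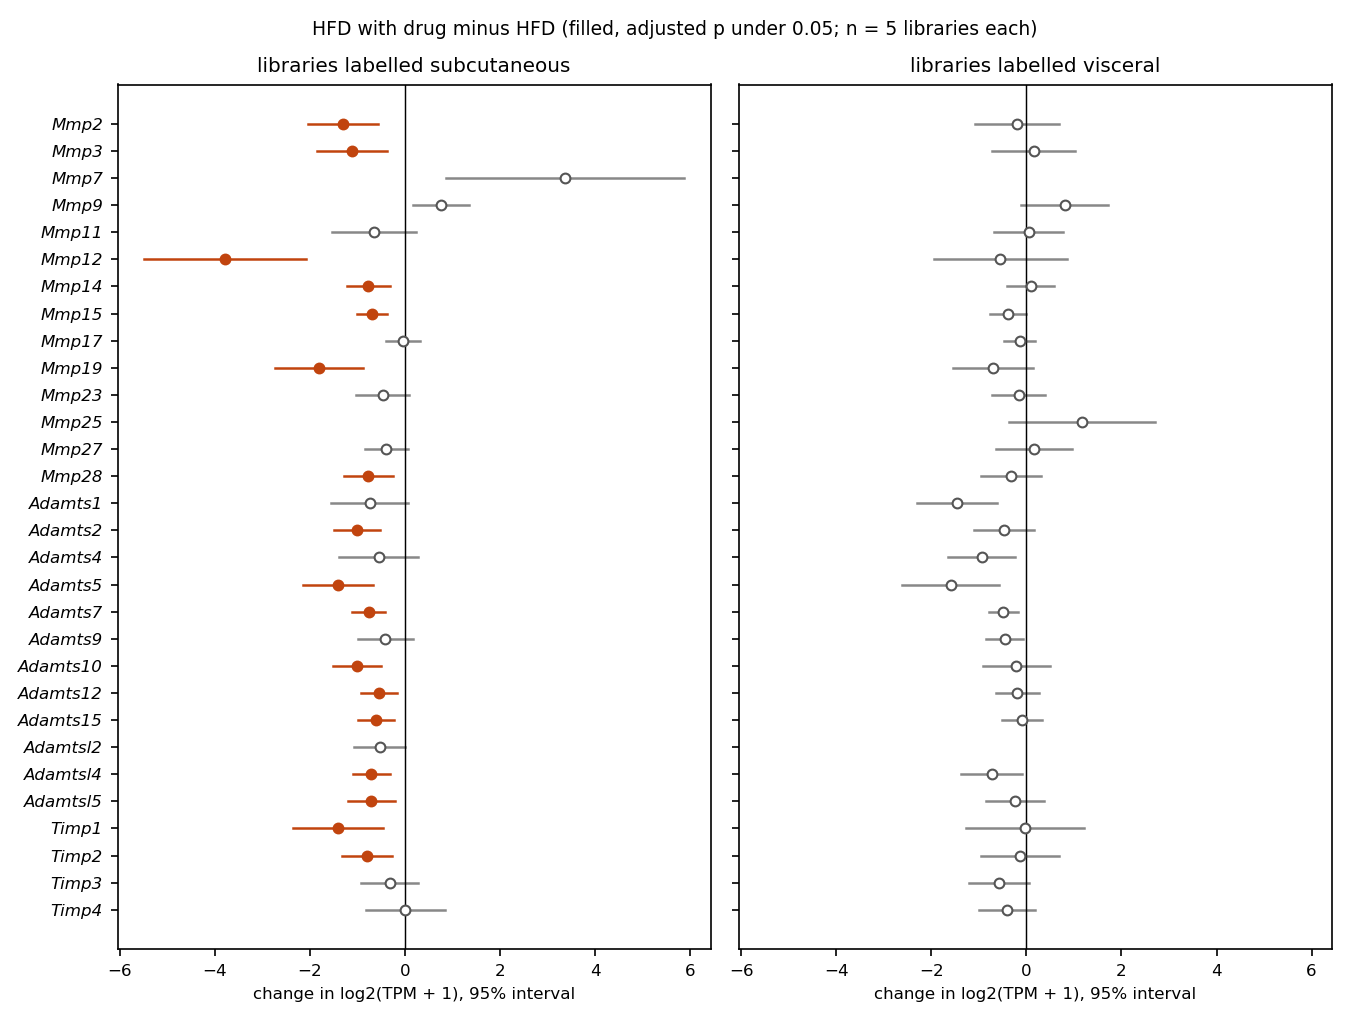
Change in log2(TPM + 1), HFD with drug minus HFD, of each tested member in libraries labelled subcutaneous (left) and visceral (right), with its 95% interval (not adjusted for the number of genes); filled points had adjusted p under 0.05. At left 17 points are filled, all below 0, and at right none is.

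In fat labelled visceral, 2 of 28 members tested rose with HFD and 0 fell, or 7.14%, while 5.29% of 17094 genes were called, with 3.91% higher and 1.39% lower. Adamtsl4 was at 23.3, 23.5, 33.1, 35.7 and 22.5 TPM in HFD libraries and 9.92, 12.2, 6.82, 15.5 and 8.24 TPM in normal libraries. It was the 1 member without overlap, against 5.03% of all genes, and its change was 1.33 (SE 0.301, adjusted p = 0.0162). Adamts5 was at 130.6, 39.8, 146.9, 63.9 and 175.0 TPM in HFD libraries and 59.9, 26.1, 17.4, 25.2 and 12.1 TPM in normal libraries, with overlap through HFD library 23 and normal library 92. Its change was 1.95 (SE 0.489, adjusted p = 0.0278). Neither was called without HFD library 50 or without normal library 96. Adamts5 also lost its call without HFD library 22 or 83 or normal library 94 or 99, with adjusted p up to 0.0877 over the alternatives.

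Changes were positive in 24 of the 28, with a median of 0.34 against -0.06 over all genes, and 8 of the 28 had an unadjusted p under 0.05, as did 3683 of the 17094 genes. The 4 Timp genes had positive changes, led by Timp4 at 0.71 (SE 0.283, adjusted p = 0.157). Mmp9 averaged 10.7 ± 4.42 TPM in HFD libraries and 19.0 ± 7.09 TPM in normal libraries (SD, n = 5 each; adjusted p from limma = 0.307). B cell markers summed to 282.8 to 4363 TPM in HFD libraries and 581.1 to 20920 TPM in normal libraries. None of these markers passed the test, and their part in the member values was not tested. The diet effect was set against that of the label subcutaneous by an interaction over all 40 libraries, which limma called in 0 of 31 members (8 at an unadjusted p under 0.05, and 1702 of 19859 genes; 0.00504% of all genes called). The smallest adjusted p was that of Adamts1, whose difference was -1.67 (SE 0.568, adjusted p = 0.417). Mmp7 and Mmp12 had differences farther from 0, at -2.58 (SE 1.23, adjusted p = 0.574) for Mmp7 and 2.04 (SE 1.07, adjusted p = 0.605) for Mmp12.

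With drug under HFD, 0 of the 28 members were called by limma in fat labelled visceral, 7 had an unadjusted p under 0.05 (2978 of 17094 genes did), and 2.16% of all genes were called, with 0.0702% higher and 2.09% lower. Changes were negative in 9 of 9 Adamts genes. Adamts1 was at 58.0, 44.9, 61.7, 46.8 and 65.2 TPM in HFD with drug libraries and 153.7, 197.5, 136.2, 151.1 and 127.5 TPM in HFD libraries. The groups lay far apart, and the change of -1.45 (SE 0.399) had adjusted p = 0.0606. With the 2 groups fitted alone it passed the threshold. Adamts5 was at 38.2, 17.1, 37.0, 23.1 and 54.3 TPM in HFD with drug libraries and 130.6, 39.8, 146.9, 63.9 and 175.0 TPM in HFD libraries (change -1.60, SE 0.489, adjusted p = 0.0845). In this gene the 5 HFD with drug libraries reached into the HFD range through library 62.

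Members without overlap in this comparison were Adamts1, Adamts4, Adamts9, Adamtsl4 and Timp4, or 5 of 28, against 3.68% of all genes. The matrix metalloproteases that fell in the other label were not called here. Mmp2 averaged 90.4 ± 37.7 TPM in HFD with drug libraries and 99.5 ± 35.8 TPM in HFD libraries (SD, n = 5 each), and the 95% interval of its change was -1.08 to 0.69. Mmp14 averaged 100.5 ± 24.2 TPM with drug and 94.7 ± 25.99 TPM without (SD, n = 5 each; interval -0.40 to 0.59). The interval for Mmp12 was -1.94 to 0.85. Macrophage markers summed to 1905 to 3246 TPM in HFD with drug libraries and 1323 to 3924 TPM in HFD libraries of this label, and 0 of 12 were called. The B cell markers summed to 153.8 to 14510 TPM in HFD with drug libraries and 282.8 to 4363 TPM in HFD libraries. Endothelial markers fell in 3 of 7 (Cdh5, Tie1 and Cldn5), and their sum was 599.7 to 882.2 TPM in HFD with drug libraries and 930 to 2421 TPM in HFD libraries, without overlap. Of 3 smooth muscle markers tested, Acta2 fell (change -1.54, SE 0.365, adjusted p = 0.0424). The part of these cells in the values of Adamts1 and the other Adamts genes was not tested.

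A test of the difference in drug effect between the depot labels called 0 of 31 members (4 at an unadjusted p under 0.05, and 3401 of 19859 genes; 0% of all genes called). Mmp12 came closest, with a difference of -3.24 (SE 1.07, adjusted p = 0.138), followed by Mmp7 at 3.29 (SE 1.23, adjusted p = 0.170) and Mmp14 at -0.87 (SE 0.325, adjusted p = 0.171). The fall of the members in one label and not in the other is therefore not shown to differ between them.

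On a normal diet, the drug changed 0 members in either label by limma, and 0% of all genes. Unadjusted p-values under 0.05 were found for 4 of 29 members in libraries labelled subcutaneous and 0 of 28 in those labelled visceral, and for 1105 of 17649 and 590 of 17094 genes. Changes were negative in 26 of 29 members in fat labelled subcutaneous and 24 of 28 in fat labelled visceral, with medians of -0.26 and -0.17, against -0.05 over all genes in both. Groups did not overlap in 0 members of either label, against 1.07% of all genes in the label subcutaneous and 0.743% in the label visceral. Timp4 was at 131.1, 177.7, 145.8, 28.4 and 88.2 TPM in normal with drug libraries labelled subcutaneous and 189.6, 225.9, 161.1, 179.3 and 184.7 TPM in normal libraries. Library 9, with 28.4 TPM, also held the 49280 TPM of epididymis and testis transcripts. The change of Timp4 was -0.94 (SE 0.393, adjusted p = 0.793). Mmp28 averaged 6.51 ± 2.46 TPM in normal with drug libraries and 10.7 ± 2.65 TPM in normal libraries of that label (SD, n = 5 each; adjusted p from limma = 0.772). Whether the drug acted differently on the 2 diets was tested as an interaction, which called 0 members in either label (8 and 2 at an unadjusted p under 0.05; 0% and 0.00585% of all genes).

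Between all 20 libraries labelled subcutaneous and all 20 labelled visceral, 16 of 31 members differed, or 51.6%, while 36.8% of 19859 genes did. Of these, 9 were higher and 7 lower in libraries labelled subcutaneous, against 23.7% and 13.2% of all genes. All 7 lower ones were Mmp genes, the 4 called Adamts genes were all higher, and 0 of the 4 Timp genes were called.

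On the log2(TPM + 1) scale, Mmp3 had the difference farthest from 0. It ranged over 1.40 to 17.8 TPM with a median of 5.65 TPM in libraries labelled subcutaneous, and over 26.3 to 121.8 TPM with a median of 61.6 TPM under the visceral label. It was the 1 member whose labels did not overlap over 20 against 20 libraries, a property of 0.438% of all genes, and it was the 1 tested member without overlap within each of the 4 treatments. The change was -3.24 (SE 0.195, adjusted p = 4.89e-15). Mmp2 was lower too, with a median of 21.2 TPM (7.36 to 71.9) in libraries labelled subcutaneous and 73.5 TPM (24.3 to 155.1) under the visceral label (change -1.67, SE 0.198, adjusted p = 5.93e-08). Its 2 highest libraries labelled subcutaneous were again HFD libraries 50 and 22. Mmp14 was lower by a smaller amount (change -0.44, SE 0.115, adjusted p = 0.00284), as were Mmp9 and Mmp15. Mmp27 had medians of 0.893 TPM in libraries labelled subcutaneous and 3.06 TPM under the visceral label (change -1.13, SE 0.155, adjusted p = 1.01e-06).

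Mmp25, a membrane protease of neutrophils, split the libraries labelled visceral. It stayed at 0.192 to 1.22 TPM in all libraries labelled subcutaneous and ranged over 0.249 to 12.4 TPM under the visceral label (change -1.03, SE 0.269, adjusted p = 0.003). The 10 highest libraries, between 3.54 and 12.4 TPM, were HFD with drug 25, 26 and 27, HFD 23, normal with drug 6, 8 and 9 and normal 94, 96 and 99, all labelled visceral. The same 10 libraries held the 10 highest B cell sums of that label, at 4363 to 20920 TPM. Mmp25 was too low to test in the label subcutaneous. In the label visceral it was not called for diet or drug, but with library weights it was called for HFD against normal.

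Higher in libraries labelled subcutaneous were Mmp7, Mmp12, Adamts1, Adamts4, Adamts5, Adamts9, Adamtsl2, Mmp11 and Mmp23, of which Adamts5 lost its call with library medians made equal. Mmp7 had a median of 4.17 TPM (0 to 194.7) in libraries labelled subcutaneous and 0.055 TPM (0 to 0.647) under the visceral label, where 7 of 20 libraries were at 0. Its means, 27.4 ± 45.6 TPM in libraries labelled subcutaneous and 0.154 ± 0.205 TPM under the visceral label (SD, n = 20 each), lay farther apart as a ratio than those of Mmp3, 6.30 ± 3.74 and 67.2 ± 30.5 TPM. The change was 3.08 (SE 0.435, adjusted p = 1.57e-06), and 1.71 to 3.73 over the alternatives. Adamts1 had a median of 191.5 TPM (77.0 to 478.9) in libraries labelled subcutaneous and 88.4 TPM (20.04 to 197.5) under the visceral label (change 1.14, SE 0.201, adjusted p = 4.16e-05). Adamts4, an aggrecanase like Adamts5, had medians of 33.3 TPM in libraries labelled subcutaneous and 18.6 TPM under the visceral label (change 1.02, SE 0.188, adjusted p = 8.11e-05). Mmp12 had medians of 20.5 TPM in libraries labelled subcutaneous and 5.25 TPM under the visceral label (change 1.75, SE 0.378, adjusted p = 0.00052). Mmp11, also called stromelysin-3, had medians of 22.5 TPM in libraries labelled subcutaneous and 16.2 TPM under the visceral label (change 0.65, SE 0.197, adjusted p = 0.00946). Adamtsl2, which binds microfibrils, and Mmp23 changed by 0.82 and 0.78, with adjusted p = 2.00e-07 and 3.24e-05.

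Other cells differed between the labels as well. All 8 mesothelial markers were higher in libraries labelled subcutaneous, and 7 of 10 B cell markers, 5 of 5 mast cell markers and 4 of 9 fibroblast markers (Col1a1, Col1a2, Col3a1 and Pi16) were lower there, while Dcn was higher. Skeletal muscle markers were lower in 7 of 7 tested, with a median change of -4.41, and 2 of 6 tested neutrophil markers were lower (Camp and S100a9). Epididymis and testis markers were higher in 10 of 14 tested, smooth muscle markers in 3 of 4 and macrophage markers in 2 of 12. Over all genes 23.7% were higher and 13.2% lower, so the macrophage count was not above the share of all genes. The part of these cells in the differences of the proteases was not tested.

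**Figure D5:**
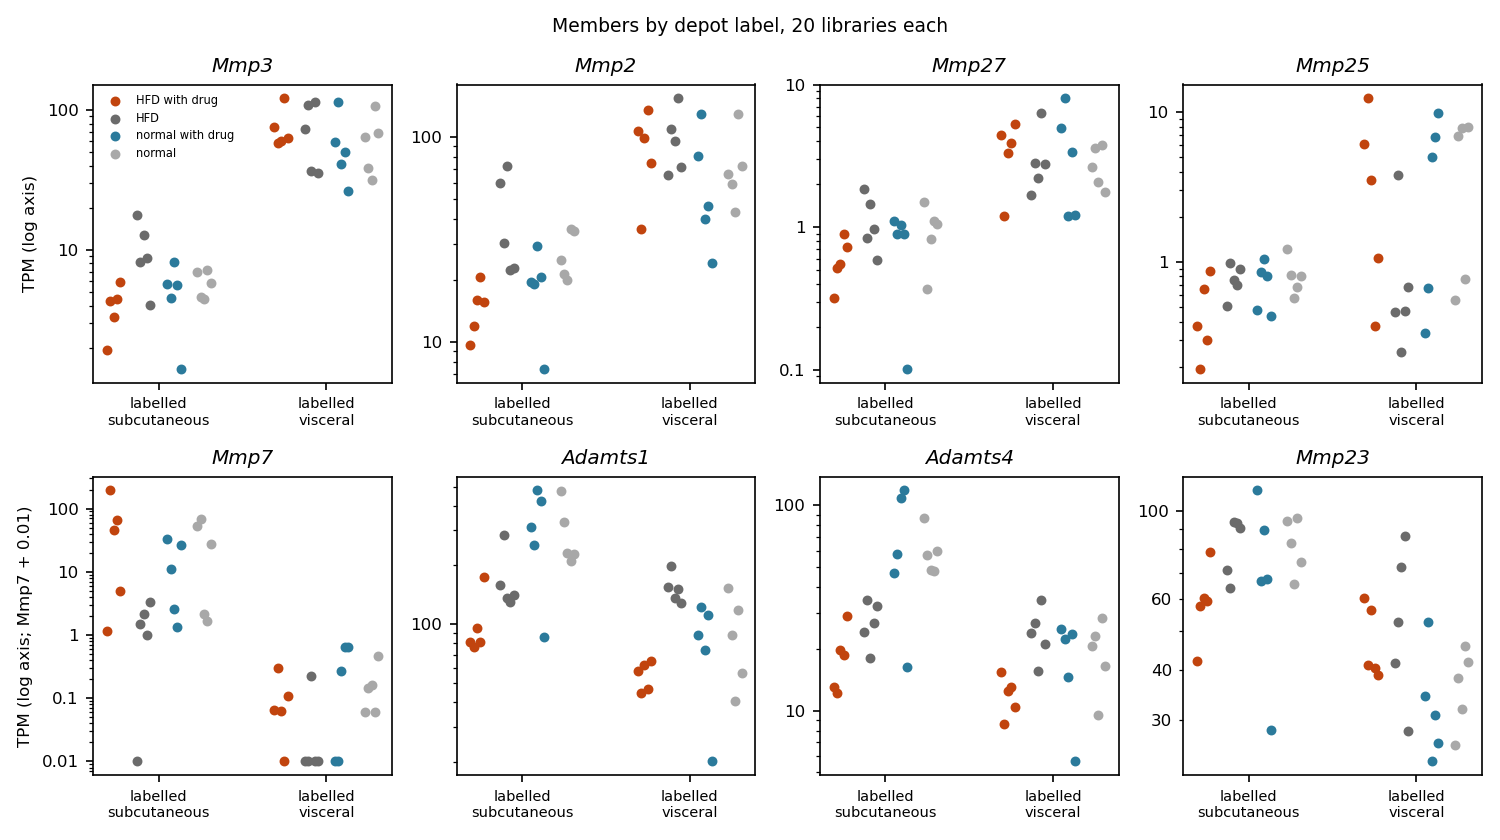
TPM (log axes; 0.01 added for Mmp7, which has zeros) of 8 members in the 20 libraries of each depot label, coloured by treatment. Mmp3 shows 2 separate bands, Mmp7 lies at or below 0.647 TPM in all libraries labelled visceral, and Mmp25 splits the libraries labelled visceral into 10 at 3.54 TPM or more and 10 at 1.07 TPM or less.

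Several of these Mmp genes lie side by side on chromosome 9. Promoter windows of 250 bases before to 50 after the start site were taken from RefSeq (build GRCm38.p6; the submitters' processing notes name GRCm39) for 36 of the 51 members. The 10 members of the chromosome 9 cluster, spread over 420.0 kb, include Mmp12, Mmp3, Mmp7 and Mmp13. The letters TGANTCA, which the AP-1 transcription factor is known to bind and which read the same on either strand, were found in the windows of 8 of these 10 genes and in 0 of the other 26 members with a window. Over all genes, 8.97% of 27025 had the letters in a window. Mmp8 and Mmp27 of the cluster had windows without them. Members without a window, among them Mmp2, Mmp9, Mmp19, Adamts4 and Adamts5, could not be searched for the letters. The 100 bases just before the start site are shown for the 4 cluster genes that stood out above, with the letters in capitals. They begin 44 bases before the start site in Mmp12 (chr9:7347274-7347373, plus strand, the second of 2 windows, the first having no match), 46 before in Mmp3 (chr9:7445722-7445821, plus strand), 63 before in Mmp7 (chr9:7691990-7692089, plus strand) and 35 before in Mmp13 (chr9:7272414-7272513, plus strand).
Mmp12: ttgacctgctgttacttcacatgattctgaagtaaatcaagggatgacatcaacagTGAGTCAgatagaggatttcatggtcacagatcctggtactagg
Mmp3: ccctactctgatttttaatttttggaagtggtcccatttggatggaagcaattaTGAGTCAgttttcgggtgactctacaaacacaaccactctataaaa
Mmp7: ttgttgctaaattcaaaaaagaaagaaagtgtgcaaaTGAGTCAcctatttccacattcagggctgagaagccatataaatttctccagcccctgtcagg
Mmp13: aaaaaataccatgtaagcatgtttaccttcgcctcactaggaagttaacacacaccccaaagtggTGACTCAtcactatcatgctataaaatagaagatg

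Genes with these letters differed in their values. Mmp12 and Mmp3 fell with drug under HFD in fat labelled subcutaneous, and Mmp7 had a positive change. Between the labels, Mmp3 was lower and Mmp7 and Mmp12 were higher in libraries labelled subcutaneous. Of the 17 members that fell with drug, 11 had a window, and 2 of these held the letters.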

How the data were processed

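The deposited table holds 1 TPM value per gene and library, for 55270 genes in 40 libraries, made by the authors; per the submitters' processing notes, the tools were FastQC 0.11.9, STAR 2.7.8, featureCounts 2.0.3 and DESeq2 1.32.0, and the build was GRCm39. How TPM was computed is not given in the sources used here. TPM keeps no read count, so the depth of 4.58 to 8.58 M reads is approximate, read from the steps between low values with exon lengths of GENCODE M21.

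Values were tested as log2(TPM + 1) with limma 3.58.1 in R 4.3.3 (group means, trended and robust variance), over genes at 1 TPM or more in at least 5 libraries, with Benjamini-Hochberg adjustment over all of them. Fits within a depot label used its 20 libraries, and comparisons of the labels all 40. The members and lists were chosen with earlier results of these data known. Members called for diet or drug were named, with up to 6 in each direction of those called only between the labels and a fixed set of 15 well-known members; other members without overlap were named after their values were seen. On simulated data, the fit recovered 53.5% of 200 genes changed by 1 on the log2 scale and 79% of those changed by 2 for HFD with drug against HFD in the label subcutaneous (17649 genes), where 8.55% and 5.95% of the calls were false. The simulated noise was independent between genes and of equal spread in all groups, which the real libraries need not follow. These shares may therefore not hold for the real comparison. Whether a title number shared by the depot labels marks 1 animal is not known, and comparisons of the labels treated all 40 libraries as separate. Figures were drawn with matplotlib 3.10.9.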

Additional observations from a re-analysis of the deposited data

Results flagged for a closer look

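In 15 of 222 groups of 5 values, over 29 members, 1 library stood farther from the other 4 than Dixon's 95% critical value allows, on the high side in 6 and on the low side in 9. Chance flags about 1 in 20 groups.

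In fat labelled subcutaneous, Adamts1 was at 173.2 TPM in HFD with drug library 62, with the others at 76.96 to 95.64 TPM, and at 283.6 TPM in HFD library 23, with the others at 129.8 to 159 TPM. HFD with drug library 25 was low for Adamts10 at 4.413 TPM (others 7.414 to 8.08 TPM) and for Adamtsl5 at 7.104 TPM (others 10.56 to 10.98 TPM), and both members had fallen with drug. Normal with drug library 2 was high for Adamts15 at 13.33 TPM (others 8.93 to 9.602 TPM). Normal with drug library 9, the one rich in epididymis and testis transcripts, was low for Mmp27 at 0.1007 TPM (others 0.8937 to 1.098 TPM) and Timp3 at 39.84 TPM (others 89.85 to 124.1 TPM). Among normal libraries, Adamts7 was at 2.101 TPM in library 91 (others 1.334 to 1.469 TPM) and Mmp12 at 37.05 TPM in library 98 (others 19.29 to 23.27 TPM).

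In fat labelled visceral, HFD with drug library 26 was low for Adamtsl4 at 9.116 TPM (others 16.24 to 20.13 TPM) and Timp2 at 61.27 TPM (others 137.1 to 157.9 TPM), and it held 14510 TPM of B cell markers. Mmp25 was at 3.785 TPM in HFD library 23 (others 0.2487 to 0.6828 TPM). Normal with drug library 9, with 16320 TPM of B cell markers, was low for Adamts1 at 20.04 TPM (others 73.72 to 121.5 TPM), Adamts9 at 1.782 TPM (others 3.032 to 3.691 TPM) and Timp4 at 44.3 TPM (others 105 to 129.3 TPM).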

How the results depend on the processing

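The 17 calls with drug under HFD in the label subcutaneous became 7 with quantile normalization, 6 of them lower and 1, Mmp9, higher. With library medians made equal they became 6, 5 of them lower and 1, again Mmp9, higher. With the gene length trend removed they became 6, and with it removed but library medians kept, an alternative not planned, 14. The changes of the 17 members that fell in the main fit were negative under each of these scalings. The 17 calls became 8 to 16 when 1 library was left out. They became 0 without HFD libraries 22 and 50, an alternative chosen after seeing the data. With HFD against normal in that label, 1 call became 6 with library weights, 4 with the compared groups alone, 3 without libraries rich in other tissues and 1 to 2 when 1 library was left out. In the label visceral, the 2 calls with HFD became 1 with no filter, 9 with library weights, 1 with the compared groups alone and 0 to 3 when 1 library was left out. The 0 calls with drug under HFD became 1 with a filter of 10 TPM, 4 with library weights, 1 with the compared groups alone and 0 to 2 when 1 library was left out. Between the labels, the 16 calls became 25 with no filter, and the interaction of label and HFD gave 2 with library weights. The cause was not tested.

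With a replicate block on the title number, 17 members differed between the labels, 16 of them shared, and 0 in both interactions. In the 16 pairs of libraries with the same number, r was -0.0714 to 0.09302, with a median of 0.02858. The median over 84 other pairs was -0.0007594. Because r compares libraries of different depot labels, it cannot decide whether a shared number marks the same animal. Over 85 named values, 36 of them past the threshold, 2105 of 2257 alternative values kept their side, 129 lost the call, 23 gained it and 0 reversed while called. The fit without libraries rich in other tissues was not run for the label visceral or between labels, where too few libraries were left. TPM keeps no read counts, so no counting interval is given for low members.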
